A study of Mus musculus with 4 samples.

Results

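Expression of 49 genes of intraflagellar transport and of the photoreceptor cilium was measured by RNA-seq in retinas of *rd7* and wild-type mice. The genes were taken by name for their known roles, by a rule that uses no measured value, though with earlier results of these libraries known. They encode subunits of the IFT-B and IFT-A trains, the BBSome and its chaperonins, the kinesin-2 and dynein-2 motors, proteins of the transition zone, and the carriers of lipidated cargo. All 49 were found among the 22095 loci listed, and all 49 were among the 12655 genes tested (those with a mean of at least 1 FPKM over the 4 libraries and the status OK in each). FPKM are fragments counted relative to the length of the transcript and to the depth of the library, so levels of different genes can be compared on this scale.

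The *rd7* mouse is mutant for *Nr2e3*, whose product is a nuclear receptor that represses cone genes in developing rods, and both genotypes are labelled as C57BL/6J. The 2 *rd7* and 2 wild-type libraries were each made from polyadenylated RNA of 8 retinas, pooled from 2 female and 2 male animals aged 3 weeks. The spread within a genotype is therefore one between pools, and p-values measure only that spread. A library averages over every cell type of the retina, so fewer cells of a type and less RNA per cell cannot be told apart.

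The outer segment of a photoreceptor is a modified primary cilium. Its disc membranes and phototransduction proteins are made in the inner segment and reach the outer segment through a narrow connecting cilium, which corresponds to the transition zone of other cilia. IFT-B trains with kinesin-2 carry material towards the tip, IFT-A trains with dynein-2 return it, and the BBSome rides on the trains and removes proteins that do not belong in the outer segment. UNC119 and PDE6D bind the lipid tails of peripheral membrane proteins such as transducin and the rod phosphodiesterase, and the GTPase ARL3 releases this cargo in the cilium. Mutations in many of these genes cause retinal degeneration, alone or within syndromes such as Bardet-Biedl, Joubert and Meckel syndrome.

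The depth was estimated as 3.52e+07 to 3.56e+07 reads per library, from the median of the lowest FPKM within a window chosen by eye. The limits of that window bear on the estimate, so neither the depth nor its likeness between libraries was measured. On that estimate the median member had 2902 reads in the library where it was lowest, and the minimum was 174 reads, for *Kif17*. Defining markers of cones, bipolar, amacrine, horizontal, ganglion and Müller cells and the 7 rod markers tested were found above 0 in all 4 libraries. Among markers of retinal neurons and glia those of cones differed most, with 8 of 10 called higher in *rd7* (median log2 fold change 1.37) and sums of 4517 and 4809 FPKM in *rd7* against 1453 and 1497 FPKM in wild-type. Of 7 rod markers tested, 4 were called lower (*Gnat1*, *Cnga1*, *Nrl* and *Rom1*), with sums of 8875 and 9627 FPKM against 12136 and 12310 FPKM. *Pde6a* (0.02), *Pde6b* (0.03) and *Sag* (-0.02) were not called, nor were the cone markers *Opn1mw* (-0.16) and *Arr3* (0.08). Under median-ratio scaling 8 cone markers were called higher and 1 lower, and 4 rod markers lower. With GC content and length corrected for, 8 cone markers were called higher and 0 lower, and 5 rod markers lower. Markers of Müller glia (5 of 8 called higher, median 0.44), bipolar cells (5 of 6, median 0.48), amacrine cells (3 of 5, median 0.27), horizontal cells (3 of 3 tested, median 0.64) and ganglion cells (1 of 5, median 0.09) had 0 called lower as deposited. These counts stood beside 37.6% of all genes called higher, and in the same order they were 4, 3, 1, 2 and 0 under median-ratio scaling and 4, 3, 0, 1 and 1 once exonic GC content and length were corrected for. Markers of the pigment epithelium summed to 69.9 and 60.6 FPKM in *rd7* against 36.3 and 22.1 FPKM, with 5 of 5 tested called higher. Markers of microglia summed to 17.6 and 21.6 FPKM against 15.4 and 15.6 FPKM. Of 5 tested, 2 were called higher as deposited, 2 under median-ratio scaling and 3 with GC content and length corrected for. Blood genes summed to 70.9 and 147 FPKM against 256 and 297 FPKM, and lens genes to 18 and 40 FPKM against 31 and 73.2 FPKM. The part of these differences in the values of the cilium genes was not tested.

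In wild-type retinas, the members ranged over nearly the whole scale of retinal expression. *Unc119* was at 1029 and 1030 FPKM, above 99.8% of the genes tested, and *Kif17* was at 1.07 and 1.28 FPKM, above 3.35%. Only 3 members had a wild-type mean of over 100 FPKM (*Unc119*, *Arl3* and *Rpgrip1*), and 3 had one of under 5 FPKM (*Bbs10*, *Rpgrip1l* and *Kif17*). By group, the median level was 311 FPKM for the 3 lipidated cargo genes, 38.6 FPKM for the BBSome and Arl6, 22.8 FPKM for kinesin-2, 13.4 FPKM for IFT-B, 12.9 FPKM for the chaperonins, 12.1 FPKM for dynein-2, 9.8 FPKM for the transition zone and 7.91 FPKM for IFT-A.

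**Figure D1:**
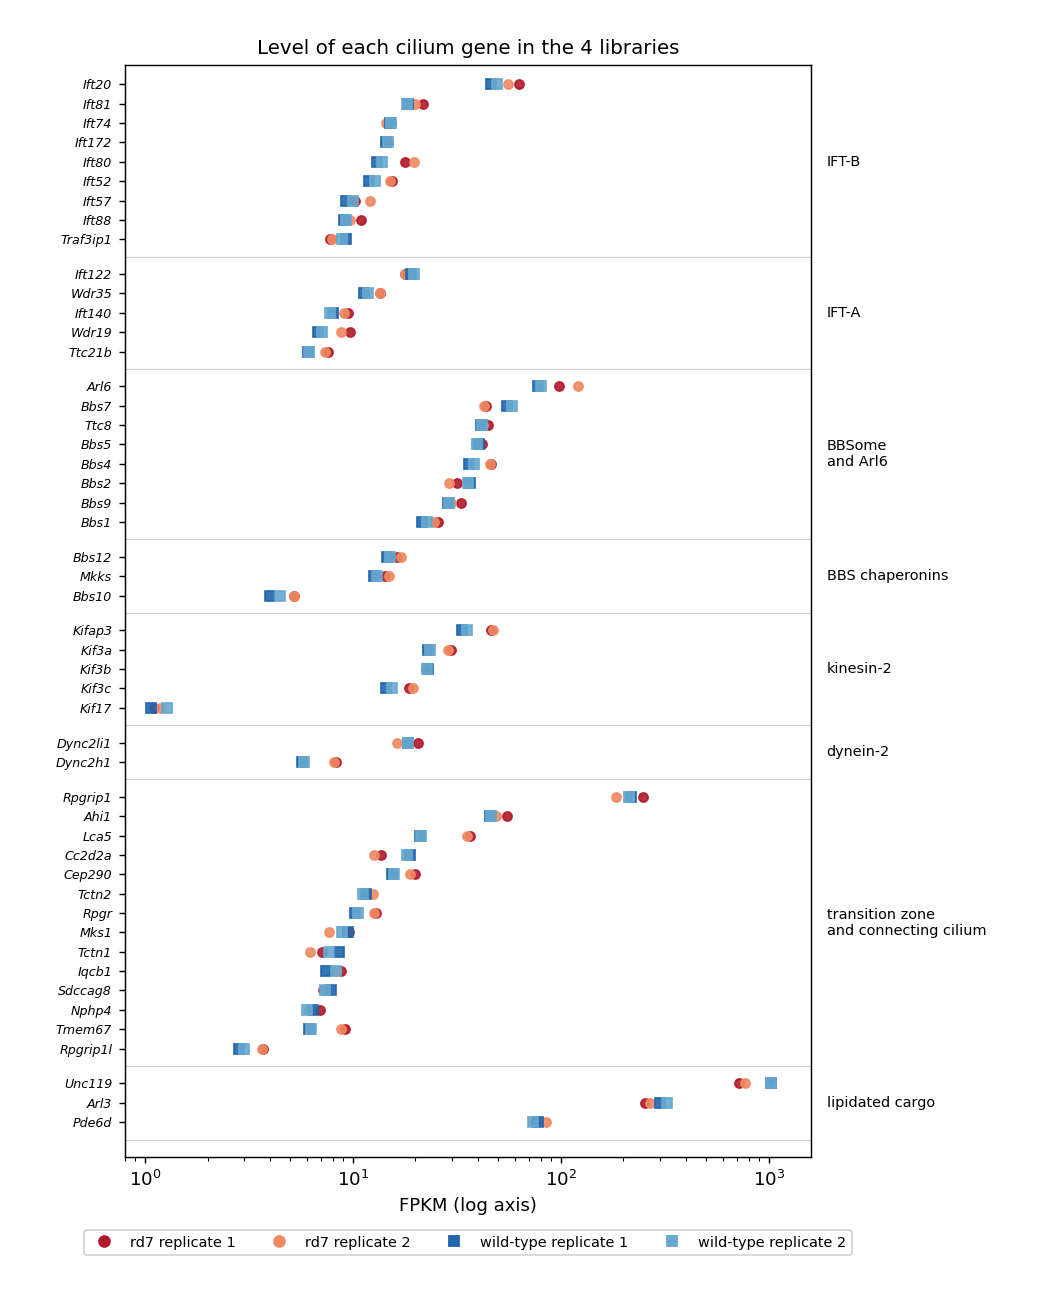
FPKM of each of the 49 genes on a log axis in the 2 *rd7* libraries (circles) and the 2 wild-type libraries (squares), grouped by role and ordered by level. The libraries of both genotypes lie close together for most genes, with *Unc119* at the top of the range (1029 and 1030 FPKM in wild-type) and *Kif17* at the bottom.

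For the comparison of genotypes, log2(FPKM + 0.1) was tested with limma, two-sided, with Benjamini-Hochberg adjustment over all genes tested. A gene is called at an FDR of 5%, and a fold change on this scale slightly understates that of a low gene. On simulated data, where far fewer genes were changed than are called here, this fit made more false calls than the nominal FDR allows. Calls may thus be wrong more often than 5%, by a share that was not measured. Of the 49 members, 20 were called higher in *rd7* (40.8%), 6 were called lower (12.2%) and 23 were not called. These shares stood beside 37.6% of all genes tested called higher and 8.8% called lower. The authors' own comparison of these libraries, at the same FDR, called far fewer genes higher in *rd7*. The median log2 fold change was 0.17 over the members and 0.15 over all genes tested. In 29 members (59.2%), both *rd7* values lay above both wild-type values, beside 57.1% of all genes, and in 8 (16.3%) both lay below, beside 19.5%. The values of the other 12 overlapped. Without wild-type replicate 1 the calls fell to 4 higher and 2 lower (10.2% and 1.77% of all genes), without wild-type replicate 2 they were 8 and 3 (16.8% and 2.67%), and without *rd7* replicate 1 they were 23 and 10 (41% and 12.7%). A fit with 1 wild-type library takes its spread from the *rd7* pools and assumes that the lone library varies like them, so a call lost there is not a smaller difference. Of the 20 members called higher, 16 lost the call without wild-type replicate 1, all but *Lca5*, *Tmem67*, *Dync2h1* and *Kifap3*, while the log2 fold changes of the 20 ran from 0.14 to 0.75 (median 0.29) against 0.18 to 0.76 (median 0.32) with all libraries. No member differed by a log2 fold change of 1 or more in either direction. As deposited, the shares of members called thus stood near those of all genes.

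The direction of small differences depended on the scaling of the libraries. When the libraries were brought to a common median ratio over genes (median-ratio scaling), the median of all genes moved from 0.15 to -0.00, and that of the members to 0.01. Then 7 members were called higher (14.3%, beside 19.7% of all genes) and 9 lower (18.4%, beside 19.6%). With the FPKM corrected for the GC content and length of the exons, 1 member was called higher (2.04%, beside 12.4% of all genes) and 14 lower (28.6%, beside 15.1%), with a median of -0.10 over the members and -0.02 over all genes. The correction also removes the mean deviation of each library, so its shift is not that of GC content and length alone. In all, 7 members were called in the same direction under all 3 treatments, *Lca5* as higher and *Cc2d2a*, *Bbs7*, *Bbs2*, *Traf3ip1*, *Unc119* and *Arl3* as lower. The share of all genes called so was not counted, and both other treatments moved the median of the members down. The balance of higher and lower among the 7 is therefore not read as a result about the members. In the values that follow, "when scaled" stands for median-ratio scaling and "when corrected" for the correction. The counts by role group stand beside 37.6% of all genes called higher and 8.8% called lower as deposited. For the other treatments they stand beside the shares of all genes just given.

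**Figure D2:**
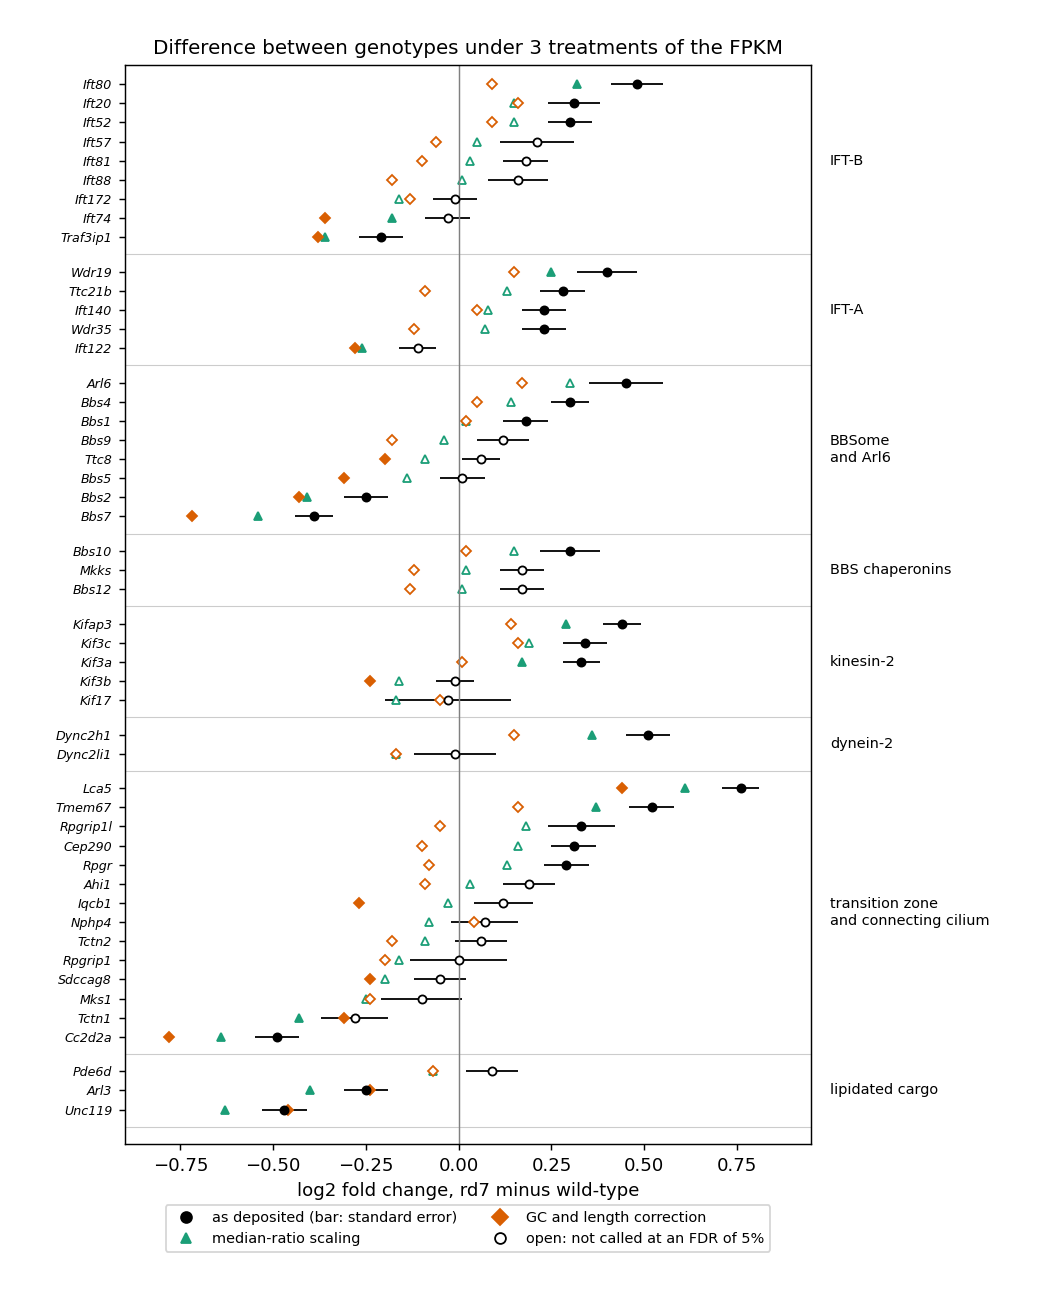
Log2 fold change of each gene, *rd7* minus wild-type, as deposited with its standard error (circles), under median-ratio scaling (triangles) and under the correction for GC content and length (diamonds). Filled symbols are called at an FDR of 5%. Under all 3 treatments *Lca5* is filled on the right and *Cc2d2a*, *Bbs7*, *Bbs2*, *Traf3ip1*, *Unc119* and *Arl3* are filled on the left. Most other filled circles have open diamonds nearer to or below 0.

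The IFT-B train links kinesin-2 to anterograde cargo. Of its 9 members on the list, 3 were called higher and 1 lower as deposited, against 1 and 2 under median-ratio scaling and 0 and 2 with the correction. *Ift80*, mutated in skeletal ciliopathies, was at 17.8 and 19.6 FPKM in *rd7* and at 13 and 13.8 FPKM in wild-type retinas. The values did not overlap, and the log2 fold change was 0.48 (standard error 0.07, adjusted p = 0.00417 from limma), 0.32 when scaled and 0.09, not called, when corrected. *Ift20*, which also sits at the Golgi and was the most abundant of the group, was at 62.8 and 55.8 FPKM against 46.2 and 49.4 FPKM (log2 fold change 0.31, standard error 0.07), and was not called when scaled (0.15) or corrected (0.16). The third gene called higher, *Ift52*, had a log2 fold change of 0.30, and 0.15 when scaled and 0.09 when corrected, neither called. *Traf3ip1*, which encodes a microtubule-binding subunit and was the least abundant of the group, went the other way. It was at 7.78 and 7.94 FPKM in *rd7* and at 9.26 and 8.9 FPKM in wild-type, without overlap. Its log2 fold change was -0.21 (standard error 0.06, adjusted p = 0.0366 from limma), -0.36 when scaled and -0.38 when corrected. The call was lost in 5 of the 14 alternatives tried, among them with wild-type replicate 1 or 2 left out, where the log2 fold change was -0.18 and -0.23 (adjusted p = 0.278 and 0.158 from limma, with the spread taken from the *rd7* pools). The other 5 genes, *Ift57*, *Ift74*, *Ift81*, *Ift88* and *Ift172*, were not called as deposited, with log2 fold changes from -0.03 to 0.21. *Ift74* (-0.03) was called lower when scaled (-0.18) and when corrected (-0.36).

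The IFT-A train carries cargo back from the tip and admits membrane proteins to the cilium. Of 5 members, 4 were called higher and 0 lower as deposited, but 1 and 1 under median-ratio scaling and 0 and 1 with the correction. *Wdr19* was at 9.71 and 8.76 FPKM in *rd7* and at 6.77 and 7.12 FPKM in wild-type. The difference was 0.40 on the log2 scale (standard error 0.08, adjusted p = 0.00875 from limma), 0.25 when scaled and 0.15, not called, when corrected. *Ttc21b*, the least abundant of the group, was at 7.61 and 7.34 FPKM against 6.1 and 6.16 FPKM, a log2 fold change of 0.28 that was 0.13 when scaled and -0.09 when corrected, neither called. *Ift140* and *Wdr35*, both called higher as deposited at 0.23, were at 0.08 and 0.07 when scaled and at 0.05 and -0.12 when corrected, and not called. *Ift122*, the most abundant, was the one gene of the group below 0 as deposited. It was at 17.9 FPKM in both *rd7* libraries and at 19 and 19.6 FPKM in wild-type, a log2 fold change of -0.11 that was not called (adjusted p = 0.143 from limma), while -0.26 when scaled and -0.28 when corrected were called lower.

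The BBSome is a coat complex that sorts membrane proteins in the cilium, and the GTPase ARL6 recruits it to membranes. As deposited, 3 of the 8 members of this group were called higher and 2 lower, beside 37.6% and 8.8% of all genes. The counts were 0 and 2 under median-ratio scaling and 0 and 4 with the correction. *Bbs7*, on chromosome 3 from 36472065 to 36512311 (mm9, minus strand), was at 43.8 and 42.7 FPKM in *rd7* and at 54.9 and 58.2 FPKM in wild-type retinas. The 2 *rd7* pools lay close together and below both wild-type pools. The log2 fold change was -0.39 (standard error 0.05, adjusted p = 0.00347 from limma), or a ratio of 0.766. It was -0.54 when scaled and -0.72 when corrected, and *Bbs7* was called lower in all 14 alternatives tried. *Bbs2*, whose product pairs with BBS7 in the complex, was on chromosome 8 from 96591854 to 96622711 (minus strand). It was at 31.8 and 28.9 FPKM against 36.7 and 35.7 FPKM, which is -0.25 on the log2 scale (standard error 0.06, adjusted p = 0.0206 from limma), -0.41 when scaled and -0.43 when corrected. At the same -0.25, it was not called with no filter on low FPKM (adjusted p = 0.114 from limma) or at an FDR of 1%. With wild-type replicate 1 or 2 left out, *Bbs2* kept log2 fold changes of -0.24 and -0.27 but was not called (adjusted p = 0.151 and 0.101 from limma, with the spread of the *rd7* pools).

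The genes called higher in this group were *Arl6*, *Bbs4* and *Bbs1*. *Arl6* was the most abundant of the 8, at 97.5 and 121 FPKM in *rd7* and at 78.1 and 80.1 FPKM in wild-type. The *rd7* pools differed widely from each other, both above wild-type, and the log2 fold change was 0.45 (standard error 0.10, adjusted p = 0.0155 from limma). *Bbs4* lies on chromosome 9 from 59169773 to 59201315, 0.589 Mb from *Nr2e3*, and is the closest of the 4 members on that chromosome. It was at 45.9 and 45.5 FPKM against 36.2 and 38.1 FPKM (log2 fold change 0.30, standard error 0.05). *Bbs1*, the least abundant of the group, encodes the subunit that ARL6 binds, and was at 25.6 and 24.5 FPKM against 21.6 and 22.7 FPKM (log2 fold change 0.18, adjusted p = 0.0433 from limma). None of these 3 was called when scaled (0.30, 0.14 and 0.02) or corrected (0.17, 0.05 and 0.02). In the same order, the call was kept in 7, 10 and 4 of the 14 alternatives tried. That of *Bbs1* was also lost with no variance trend and with the replicate block. *Bbs5*, *Bbs9* and *Ttc8* had log2 fold changes of 0.01, 0.12 and 0.06 and were not called as deposited. With the correction, *Bbs5* (-0.31) and *Ttc8* (-0.20) were called lower.

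The chaperonin-like proteins MKKS, BBS10 and BBS12 assist the assembly of the BBSome. *Bbs10*, the least abundant, was at 5.22 FPKM in both *rd7* libraries and at 4.01 and 4.44 FPKM in wild-type (log2 fold change 0.30, standard error 0.08, adjusted p = 0.0283 from limma). *Bbs12*, the most abundant, was at 16.3 and 17 FPKM against 14.6 and 15.1 FPKM, and its log2 fold change of 0.17 was not called, as for *Mkks* (0.17). Values of *rd7* lay above those of wild-type in all 3, and none of the 3 was called when scaled or corrected.

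Among the motors, the heterotrimeric kinesin-2 of KIF3A, KIF3B and KAP3 drives anterograde transport, and dynein-2 drives the return. As deposited, 3 of 5 kinesin-2 genes and 1 of 2 dynein-2 genes were called higher and none lower. Under median-ratio scaling 2 and 1 were called higher. With the correction 0 were, and *Kif3b* was called lower (-0.24). *Kifap3*, which encodes the accessory subunit KAP3 and was the most abundant kinesin-2 gene, was at 46.2 and 47.3 FPKM in *rd7* and at 33.4 and 35.3 FPKM in wild-type. Its log2 fold change was 0.44 (standard error 0.05, adjusted p = 0.00248 from limma), 0.29 when scaled and 0.14 when corrected, and the correction was the only 1 of the 14 alternatives in which the call was lost. Of the motor subunits of the same complex, *Kif3a* was called higher at 0.33 and at 0.17 when scaled, and was at 0.01, not called, when corrected, while *Kif3b* was at -0.01, not called. *Kif3c* was called higher at 0.34, but not when scaled (0.19) or corrected (0.16). *Kif17*, the homodimeric kinesin-2, was at 1.11 and 1.18 FPKM against 1.07 and 1.28 FPKM, and its 95% interval for the log2 fold change ran from -0.45 to 0.39.

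*Dync2h1*, the heavy chain of dynein-2, was at 8.3 and 8.14 FPKM in *rd7* and at 5.68 and 5.81 FPKM in wild-type. The pools of each genotype nearly coincided, and the log2 fold change was 0.51 (standard error 0.06, adjusted p = 0.00265 from limma), 0.36 when scaled and 0.15, not called, when corrected. *Dync2li1*, its light intermediate chain, was at 20.6 and 16.3 FPKM against 18.5 FPKM in both wild-type libraries. The *rd7* pools lay on both sides of wild-type, with a log2 fold change of -0.01 as deposited. It was -0.18 without *rd7* replicate 1 and 0.16 without *rd7* replicate 2, called lower and higher (adjusted p = 0.0261 and 0.041 from limma, with the spread of the wild-type pools).

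The 14 genes of the transition zone and connecting cilium held both the highest and the lowest log2 fold change of all members. As deposited 5 were called higher and 1 lower, against 2 and 2 under median-ratio scaling and 1 and 4 with the correction. *Lca5* encodes lebercilin, a protein of the connecting cilium and axoneme that binds the IFT machinery and is mutated in Leber congenital amaurosis. It lies on chromosome 9 from 83284962 to 83334734 (minus strand), 23.5 Mb from *Nr2e3*. Its level was 36.5 and 35.2 FPKM in *rd7* and 21 and 21.2 FPKM in wild-type retinas, with an estimated 4690 reads in the library where it was lowest. The gap between the genotypes was far larger than that between pools, with a log2 difference of 0.76 (95% interval 0.64 to 0.88, standard error 0.05, adjusted p = 0.00061 from limma), a ratio of 1.69. It was 0.61 when scaled and 0.44 when corrected, and *Lca5* was called higher in all 14 alternatives (adjusted p from 1.9e-05 to 0.0168).

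*Cc2d2a* encodes a transition zone protein mutated in Joubert and Meckel syndrome. It lies on chromosome 5 from 44053685 to 44132209 (plus strand). Its level was 13.7 and 12.7 FPKM in *rd7* and 18.9 and 18.3 FPKM in wild-type. Both *rd7* pools were below both wild-type pools, at a ratio of 0.713 or a log2 difference of -0.49 (standard error 0.06, adjusted p = 0.00285 from limma). The difference was -0.64 when scaled and -0.78 when corrected, and *Cc2d2a* was called lower in all 14 alternatives (adjusted p from 0.000266 to 0.0476). *Tmem67*, which encodes meckelin, a membrane receptor of the same zone, was called in the opposite direction as deposited. It was at 9.21 and 8.78 FPKM against 6.15 and 6.32 FPKM (log2 fold change 0.52, standard error 0.06, adjusted p = 0.00265 from limma), 0.37 when scaled and 0.16, not called, when corrected.

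*Rpgrip1*, which tethers RPGR at the connecting cilium of photoreceptors, was the most abundant of the group. Its level was 248 and 185 FPKM in *rd7* and 217 and 212 FPKM in wild-type. The *rd7* pools lay above and below wild-type, the log2 fold change was -0.00 with a 95% interval from -0.33 to 0.33, and its locus overlaps that of *Supt16h*. *Rpgrip1l*, its widely expressed relative and the least abundant of the group, was at 3.7 and 3.67 FPKM against 2.83 and 2.99 FPKM (log2 fold change 0.33, standard error 0.09, adjusted p = 0.0244 from limma), but 0.18 when scaled and -0.05 when corrected, neither called. *Cep290* (0.31) and *Rpgr* (0.29), whose products bridge the microtubules and the membrane or regulate trafficking there, were called higher as deposited. They stood at 0.16 and 0.13 when scaled and at -0.10 and -0.08 when corrected, and were not called. The other 7 genes were not called as deposited, with log2 fold changes from -0.28 for *Tctn1* (adjusted p = 0.0544 from limma) to 0.19 for *Ahi1*. *Tctn1*, whose locus overlaps that of *Hvcn1*, was called lower when scaled (-0.43) and when corrected (-0.31). *Iqcb1* (-0.27) and *Sdccag8* (-0.24) were called lower when corrected.

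The carriers of lipidated cargo were the most abundant group, with a summed level of 1048 and 1120 FPKM in *rd7* and 1406 and 1426 FPKM in wild-type. Of the 3 genes, 2 were called lower and 0 higher under each of the 3 treatments. *Unc119*, on chromosome 11 from 78157024 to 78162658 (plus strand), encodes the carrier of myristoylated proteins, among them the rod transducin α subunit. It was at 718 and 765 FPKM in *rd7* and at 1029 and 1030 FPKM in wild-type retinas. The difference exceeded the spread between pools, with a ratio of 0.72 and a log2 difference of -0.47 (standard error 0.06, adjusted p = 0.0024 from limma), -0.63 when scaled and -0.46 when corrected. The log2 difference was also -0.47 with no filter on low FPKM (adjusted p = 0.113 from limma) and without wild-type replicate 1 (adjusted p = 0.0614, with the spread of the *rd7* pools), and was not called in these. *Arl3*, on chromosome 19 from 46605599 to 46647575 (minus strand), was at 255 and 269 FPKM against 299 and 323 FPKM. Its log2 fold change was -0.25 (standard error 0.06, adjusted p = 0.0204 from limma), -0.40 when scaled and -0.24 when corrected, and it was -0.30 and -0.19, not called, with wild-type replicate 1 or 2 left out (adjusted p = 0.0954 and 0.192 from limma, again with the spread of the *rd7* pools). At an unchanged -0.25, *Arl3* was also not called with no filter on low FPKM (adjusted p = 0.13 from limma) or at an FDR of 1%. *Pde6d*, the carrier of prenylated proteins, was at 75.4 and 85.3 FPKM against 77.6 and 73.3 FPKM. Its values overlapped, and the log2 fold change was 0.09 as deposited and -0.07 both when scaled and when corrected, not called in any of these. It was 0.18 without *rd7* replicate 1 and -0.00 without *rd7* replicate 2. With all libraries its 95% interval ran from -0.09 to 0.27, which lies above the estimates for *Unc119* and *Arl3*. Whether *Pde6d* differed from them was not tested. *Unc119* exceeded *Pde6d* by a ratio of 13.3 and 14.1 in wild-type and of 9.52 and 8.97 in *rd7* retinas. Among the rod markers, *Gnat1*, the transducin α subunit that UNC119 carries, was at 2710 and 3333 FPKM against 5154 and 5206 FPKM, a log2 fold change of -0.79. The rod markers *Pde6a* (0.02), *Pde6b* (0.03) and *Sag* (-0.02) were not called as deposited. The cone marker *Gnat2* was at 757 and 884 FPKM in *rd7* against 87.8 and 93.4 FPKM, a log2 fold change of 3.17. Whether the levels of carriers and cargo are linked was not tested.

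**Figure D3:**
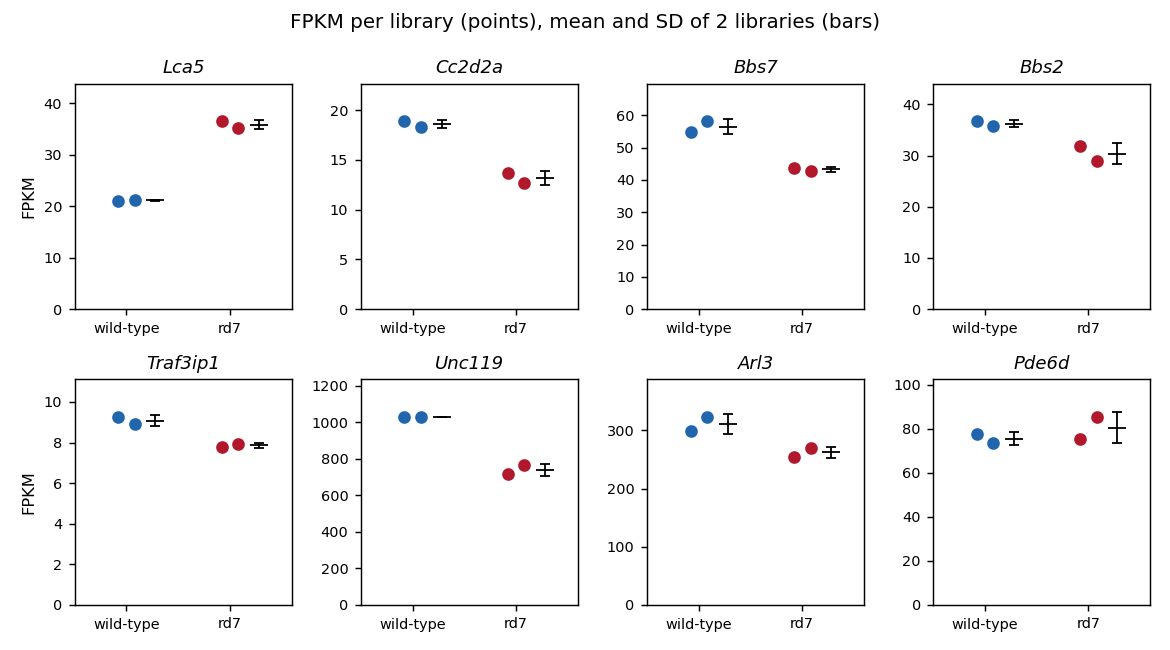
FPKM of *Pde6d* and of the 7 genes called in the same direction under all 3 treatments, in each library (points), with the mean and SD of the 2 libraries of each genotype (bars). The axes start at 0. *Lca5* lies higher in both *rd7* pools (36.5 and 35.2 against 21 and 21.2 FPKM), the 6 genes from *Cc2d2a* to *Arl3* lie lower in both, and the values of *Pde6d* overlap.

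Promoter sequences were read for the members from a RefSeq table (GRCm38.p6) of 250 bases before to 50 bases after each start, which held 51 windows of 43 members and 32851 windows in all. RFX factors, which activate cilium genes in many animals, bind the X-box. Its core GTTGCC was found, on either strand, in 21 of the 51 windows (41.2%) against 12.5% of all windows. The full X-box, taken as the core followed after 2 bases by GG, 1 further base and AAC, was added after the core had been counted. It was found in 4 member windows (7.84%) against 0.298% of all, those of *Ahi1*, *Bbs7*, *Mks1* and *Tctn1*. Of the 20 members with a core, 7 were called higher and 2 lower as deposited, and of the 23 without it 11 and 4. The site TAATCC of the photoreceptor factor CRX was in 3 member windows (5.88%, against 7.06% of all), those of *Bbs1*, *Rpgrip1* and *Unc119*. The core AAGTCA of the site bound by NR2E3, whose gene is mutated in *rd7*, was in 7 member windows (13.7%, against 15.1% of all). Of these, 3 belonged to members called higher and 0 to members called lower, beside 15 and 6 of the 36 members without it. A match is a stretch of letters and not a bound site, and no match says only that these letters are not in the window. The stretches shown are those of the gene with the largest difference among the 4 with the X-box (*Bbs7*), of 1 of the 4 that was not called (*Mks1*), and of the 3 genes with the CRX letters, in the orientation of the gene and matched to mm9. Capitals mark the X-box in *Bbs7* (chr3:36512400-36512462, minus strand, motif starting 121 bases before the start) and in *Mks1* (chr11:87666663-87666716, plus strand, 24 bases before), and the CRX letters or their reverse complement GGATTA in *Unc119* (chr11:78158938-78159003, plus strand, 118 bases before), *Rpgrip1* (chr14:52730520-52730577, plus strand, 28 bases before) and *Bbs1* (chr19:4906789-4906854, minus strand, 197 bases before). The *Unc119* stretch precedes an alternative start inside the locus.
Bbs7: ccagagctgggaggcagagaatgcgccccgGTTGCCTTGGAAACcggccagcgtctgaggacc
Mks1: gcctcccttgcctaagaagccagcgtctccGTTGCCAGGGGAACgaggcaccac
Unc119: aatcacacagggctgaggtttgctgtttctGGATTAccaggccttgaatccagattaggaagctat
Rpgrip1: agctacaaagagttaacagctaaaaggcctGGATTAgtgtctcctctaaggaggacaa
Bbs1: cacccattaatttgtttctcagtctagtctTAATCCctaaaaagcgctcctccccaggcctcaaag

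Of these 5 genes, *Bbs7* was lower in *rd7* and *Mks1* was not called (9.53 and 7.71 FPKM against 9.51 and 8.88 FPKM, log2 fold change -0.10). The log2 fold change of *Mks1* was -0.25 without *rd7* replicate 1 and 0.05 without *rd7* replicate 2. The 3 genes with the CRX letters went in different directions as deposited, with *Unc119* at -0.47, *Rpgrip1* at -0.00 and *Bbs1* at 0.18.

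The base composition of the transcripts moved with the comparison. Across the 12402 genes with an annotated exonic length, the Spearman correlation of the log2 fold change with exonic GC content was -0.44 and that with length was 0.28. Over the 49 members these were -0.48 and 0.34, as a description of genes that share the same 4 libraries. From the 1241 genes with the lowest GC content (median 40.2%) to the 1241 genes with the highest (median 59.8%), the median log2 fold change went from 0.35 to -0.07. The 24 members of lower GC content had a median of 0.25 and the 25 of higher GC content a median of -0.01. *Dync2h1* (42.4% GC, log2 fold change 0.51) and *Tmem67* (42.8%, 0.52) lay just above the middle 50% of the 1240 genes with a median GC content of 43.2%, which ran from 0.15 to 0.46. *Ift80* (40.6%, 0.48) lay within that of the 1241 genes of lowest GC content, from 0.18 to 0.52. *Bbs7* (42%) and *Cc2d2a* (46.9%) were lower in *rd7* although genes of such a composition were mostly higher, and *Lca5* (45.1%) stood above the genes of its own composition, whose middle 50% lay between 0.09 and 0.42 (1240 genes with a median GC content of 45.3%). Whether composition is a property of the transcripts that changed or of the libraries was not tested.

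**Figure D4:**
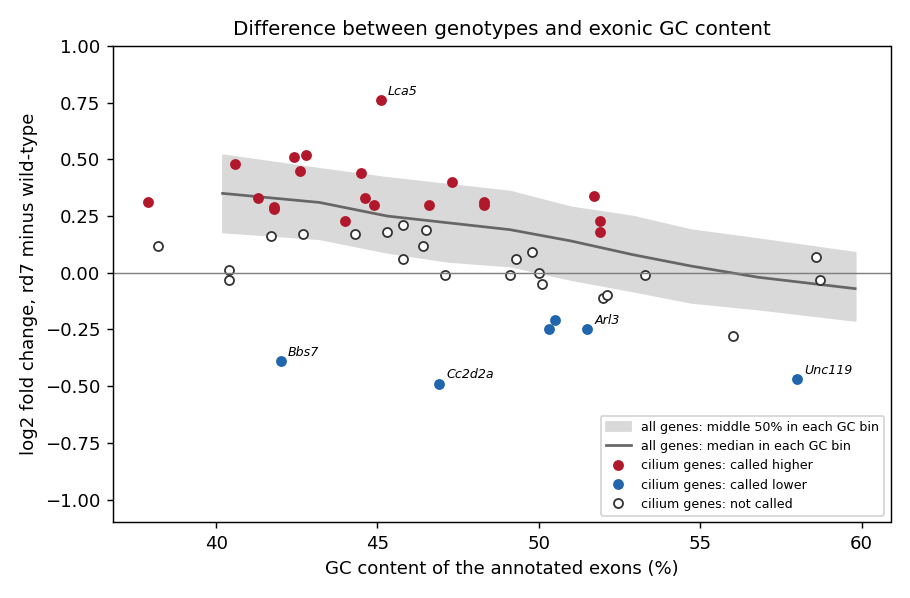
Log2 fold change as deposited against the GC content of the annotated exons for the 49 genes, coloured by call. The line and band are the median and the middle 50% of all genes in 10 bins of GC content. The band falls from a median of 0.35 at 40.2% GC to -0.07 at 59.8% GC, with *Lca5* above it and *Bbs7*, *Cc2d2a* and *Unc119* below it.

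The rest of the cilium was read from a list of 48 other genes of IFT, the BBSome, the motors, the transition zone, the basal body and the photoreceptor axoneme, of which 46 were tested. As deposited 11 were called higher and 6 lower with a median of 0.03, beside 37.6% and 8.8% of all genes. Under median-ratio scaling 6 were called higher and 14 lower with a median of -0.12, beside 19.7% and 19.6% of all genes. With the correction 5 were called higher and 20 lower with a median of -0.18, beside 12.4% and 15.1%. As deposited but without wild-type replicate 1, 3 were called higher and 2 lower, and without wild-type replicate 2, 6 and 3. *Cep164*, which builds the distal appendages by which the basal body docks at the membrane, differed most. It was at 13.5 and 17.1 FPKM in *rd7* and at 32.9 and 31.8 FPKM in wild-type, a log2 difference of -1.09 (standard error 0.11, adjusted p = 0.00177 from limma), -1.24 when scaled and -1.16 when corrected. Of the 46 genes, 10 were called in the same direction under all 3 treatments, and all named here but *Cep164* were chosen after their values were seen. The share of all genes called so was not counted, so the 10 are not read as a result about the list. The 4 called higher were *Unc119b*, *Tmem237*, *Mak* and *Tubb4b*, and the 6 called lower were *Cep164*, *Tulp1*, *Ift43*, *Cluap1*, *Rp1l1* and *Tctex1d2*. *Unc119b*, the paralogue of *Unc119*, was at 15.7 FPKM in both *rd7* libraries against 10.1 and 10.4 FPKM (log2 fold change 0.60, 0.45 when scaled and 0.53 when corrected, called each time). *Rp2*, whose product switches off ARL3, was at 3.77 and 3.82 FPKM against 2.55 and 2.32 FPKM (0.62, 0.47 when scaled and 0.23, not called, when corrected). *Ift43*, an IFT-A subunit not among the 5 above, was at 26 and 23.6 FPKM against 35.3 and 32.9 FPKM (-0.46, -0.61 when scaled and -0.43 when corrected), and *Tulp1*, a photoreceptor protein needed for transport to the outer segment, was at 393 and 397 FPKM against 564 and 538 FPKM (-0.48, -0.63 when scaled and -0.56 when corrected). *Tmem237*, *Mak* and *Tubb4b* had log2 fold changes of 0.55, 0.44 and 0.40 as deposited, and *Cluap1*, *Rp1l1* and *Tctex1d2* of -0.21, -0.21 and -0.19. Of 12 genes of motile cilia, which photoreceptors do not form, 5 reached 1 FPKM. As deposited limma called 0 of these, with 1 at an unadjusted p under 0.05, and 3 were called lower under median-ratio scaling.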

How the data were processed

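RNA-seq was analysed in 2 *rd7* and 2 wild-type libraries of single reads of 50 bases. Per the labels and methods, the authors mapped the reads to mm9 with TopHat 1.4.1 and deposited FPKM per gene and library from Cufflinks 1.3.0, with a status. Their Cuffdiff table holds their own comparison and was not used. Read counts were not used here, so no count model was run. Depth was estimated from the median of the smallest FPKM times kb of genes that have a single transcript of over 800 bases. Only values within a window chosen by eye (0.02 to 0.036) entered, so the estimate depends on that window.

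Of 22095 loci, 262 without a successful status in every library were left out. Genes with a mean of at least 1 FPKM were tested as log2(FPKM + 0.1) in R 4.3.3 with limma 3.58.1 (moderated variances with a trend, no block, two-sided, Benjamini-Hochberg over all genes, FDR of 5%). The fit was tested on simulated data with known changes in a small share of genes. It recovered most changes there and made more false calls than the nominal FDR allows. Exonic length and GC content came from GENCODE vM1 for 98% of the genes tested and all 49 members. The correction subtracted natural splines (5 degrees of freedom) fitted, per library, to the deviations from gene means. The fit has an intercept, so the mean deviation of each library was removed with them.

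Values in every library are given for members called with an absolute log2 fold change of at least 0.4 or called lower, for the highest and lowest of each role group, and for the member nearest *Nr2e3*. Genes of the other list are named from 0.8, with others of it named after their values were seen. The members and lists were chosen with earlier results of these data known. A further gene of the marker lists, beside those named, is not reported here.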

Additional observations from a re-analysis of the deposited data

How the results depend on the processing

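The alternatives were 2 other pseudocounts, no filter or a higher filter on low FPKM, 2 scalings, no variance trend, a replicate block, the correction for GC content and length, an FDR of 1% and leaving out each library. Members called higher (20) numbered 9 without a filter, 7 under median-ratio scaling, 7 under quantile normalization, 1 with the correction, 10 at an FDR of 1%, and 4 to 26 with a library left out. Members called lower (6) numbered 2 without a filter, 14 with the correction, 3 at an FDR of 1% and 2 to 10 with a library left out. Of all genes, 10.3% were called higher and 2.08% lower without a filter, 18.6% and 19% under quantile normalization, and 20.4% and 3.52% at an FDR of 1%. With a library left out, calls rest on a lone library of a genotype, so only the medians are given here. The members' median (0.17) was 0.01 under either scaling, -0.10 with the correction and 0.13 to 0.20 with a library left out. Of the other cilium genes, those called higher (11) numbered 5 without a filter, 6 under either scaling, 5 with the correction, 6 at an FDR of 1% and 3 to 13 with a library left out, and those called lower (6) numbered 3, 14, 20, 3 and 2 to 9. Their median (0.03) was -0.12 under either scaling, -0.18 with the correction and -0.03 to 0.06 with a library left out. With the replicate block, 19 members were called higher and 6 lower, beside 35.6% and 8.62% of all genes. *Traf3ip1* and *Bbs1* then lost their calls (adjusted p = 0.0561 and 0.0641 from limma), and *Tctn1* was called lower (adjusted p = 0.0234 from limma). The replicate numbers did not pair the libraries (correlation of deviations -0.0265).

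Members above 0 numbered 33 as deposited and 26 under median-ratio scaling. With the correction, which also recentres each library, 17 of the 33 fell below 0. Of these, 8 were called in one fit or the other, namely *Ttc21b* (-0.09), *Wdr35* (-0.12), *Bbs5* (-0.31), *Ttc8* (-0.20), *Cep290* (-0.10), *Rpgr* (-0.08), *Rpgrip1l* (-0.05) and *Iqcb1* (-0.27). Without *rd7* replicate 2, *Dync2li1* was at 0.16 and *Rpgrip1* at 0.21, and without *rd7* replicate 1 they were at -0.18 and -0.21. The cause was not tested. Where a library is left out, the spread comes from the pools of the other genotype. Depth limits *Kif17* most.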
